A study of Mus musculus with 50 samples.

Results

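Wild-type (WT) mouse blood progenitors of 2 sorted populations were compared: 3 libraries of LSK cells against 3 libraries of GMP cells, all labelled WT and 4 weeks, out of 50 libraries in the series. The 6 libraries were chosen by their labels and by the column names of the count table, in which each LSK library shares an animal number with 1 GMP library. LSK are lineage-negative marrow cells that carry Sca1 and Kit, and GMP are granulocyte-monocyte progenitors; both were sorted by flow cytometry into Trizol. The other 44 libraries carry Flt3 in their labels, alone or with Npm1 or Dnmt3a, and the results below use the 2 WT groups. The labels give no strain, sex or age for the WT mice, do not say whether they received a recombinase, and do not define what the 4 weeks are counted from. They name 1 paired-end and 1 single-end library kit without saying which was used for which sample.

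The LSK gate holds the self-renewing stem cells and the multipotent progenitors that still reach every blood lineage. The GMP gate holds committed precursors of neutrophils, monocytes and, in part, basophils, mast cells and eosinophils. GMP are known for the synthesis of primary (azurophil) granule proteins, a set of proteases and peroxidase packed in the promyelocyte stage, whose genes are driven by C/EBP, PU.1, MYB and RUNX factors. Stem cells are known for a largely quiescent state, and for transcription factors such as Hlf, Mecom and Meis1. In bulk libraries fewer cells that express a gene and less RNA of it per cell cannot be told apart.

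Total counts were 808900 to 2849650 per LSK library and 1014847 to 2009072 per GMP library, with 12382 to 14435 genes detected in LSK and 11610 to 12653 in GMP. Levels are given as CPM, counts scaled to the library total with TMM factors, and differences as log2 fold changes of LSK over GMP ± SE from edgeR's quasi-likelihood fit, where a gene is called higher or lower at a Benjamini-Hochberg adjusted p under 0.05. Of 9415 genes with enough reads, 3051 (32.4%) were called. Of these, 1509 (16.0% of the genes tested) were higher in LSK and 1542 (16.4%) were lower, and the median log2 fold change of all tested genes was 0.055. The higher calls were larger, with a median of 1.34 for called genes higher in LSK and -0.80 for called genes lower in LSK. A gene with reads in 1 population only could enter the test only by differing, so counts of list members describe the list and are no test of it. The shares of 16.0% higher and 16.4% lower are the background of the list counts of this fit. At 8-fold or more, 149 genes were higher and 66 lower. All LSK libraries lay above all GMP libraries for 23.6% of tested genes and below them for 22.5%, so a lack of overlap is common. The first principal component held 73.1% of the variance and separated all 3 LSK from all 3 GMP libraries.

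Level, transcript length and 1 library touch results given later. The genes were put in 4 bins of equal size by mean level. The median log2 fold change was 0.43 in the lowest bin and -0.31 in the highest, where 42.7% of genes were lower in LSK. Over 4 bins of transcript length the median was -0.31 in the shortest and 0.39 in the longest. In LSK replicate 1 the genes of the longest bin deviated most from their mean over the 6 libraries, by 0.336 on the log2(CPM + 1) scale, against 0.156 and 0.114 in LSK replicates 2 and 3, and GMP replicate 1 deviated by -0.266 the other way. No such gradient was present over GC content, where the medians of the 4 bins lay between 0.037 and 0.073. Values with these trends removed, by an offset per gene fitted to level or to transcript length, are given beside most results where they changed a call or moved a count. With the offset by level 13.0% of all tested genes were higher in LSK and 12.2% lower. With the offset by transcript length 11.2% were higher and 18.8% lower. LSK replicate 3 held more RNA of tissue macrophage markers than any other library, at a summed 356.3, 726.2 and 2254 CPM over 15 markers in LSK replicates 1, 2 and 3, against 150.7, 109.7 and 197.3 CPM in GMP. Of these markers 14 had a count in each LSK library and 12 to 14 in the GMP libraries. The part of this RNA in the results on myeloid genes was not tested, and values without LSK replicate 3 are given where they differ.

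**Figure D1:**
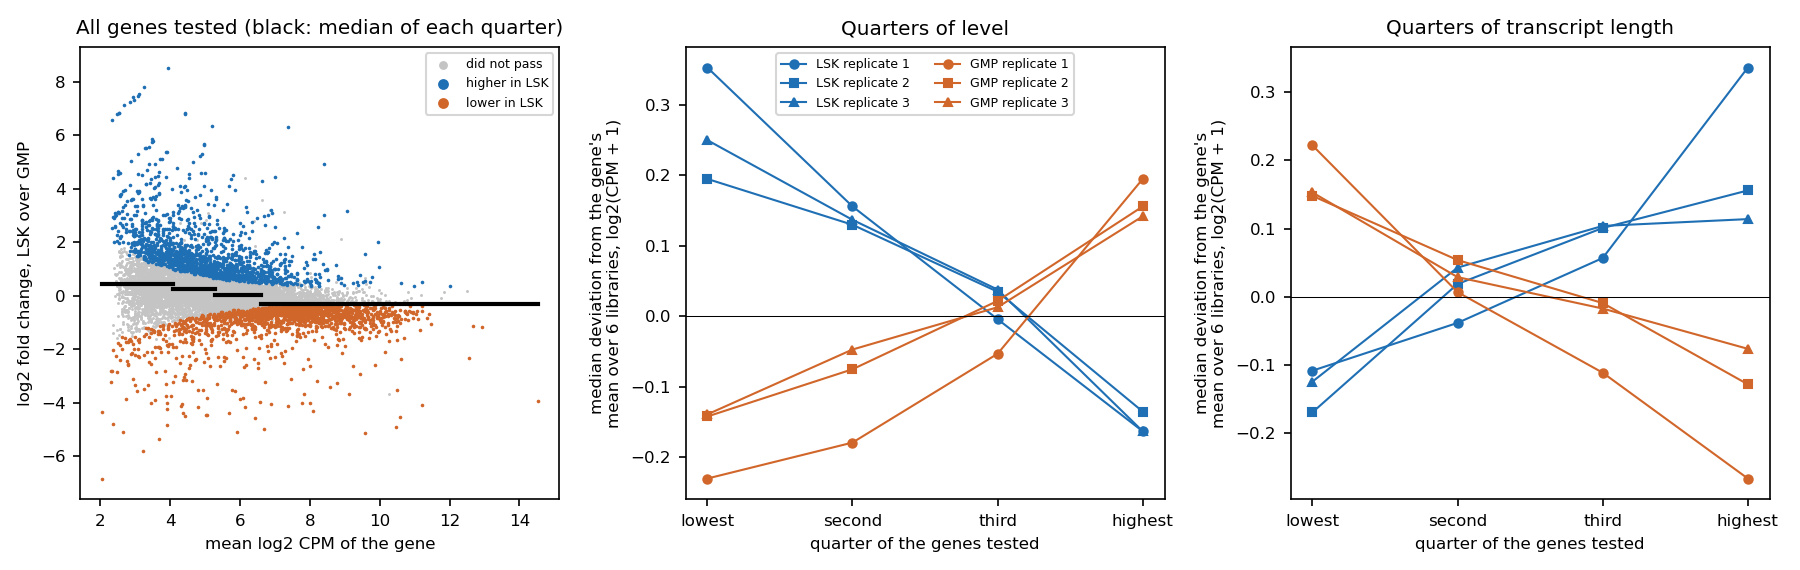
Log2 fold change of LSK over GMP against mean log2 CPM for every tested gene (left; black bars give the median of each of 4 bins), and the median deviation of the genes of each bin of level (middle) and of transcript length (right) from their mean over the 6 libraries, 1 line per library. The black bars step down from 0.43 at the lowest level to -0.31 at the highest, and LSK replicate 1 stands highest among the longest transcripts, at 0.336.

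The transcripts of the antigens that define the gates were examined first. Ly6a, which encodes Sca1, stood at 119.7, 74.1 and 98.7 CPM in LSK, against 2.32, 5.60 and 3.82 CPM in GMP. That is a log2 fold change of 4.52 ± 0.32 (adjusted p = 5.77e-10), with no overlap between the populations. Kit, the stem cell factor receptor by which both gates are drawn, had 192, 249.7 and 193 CPM in LSK, against 64.9, 119 and 100.2 CPM in GMP, and was higher by 1.12 ± 0.19 (adjusted p = 0.000148). Flt3, the receptor of multipotent and lymphoid-primed progenitors and the gene mutated elsewhere in the series, had 143, 193 and 195 CPM in LSK, against 19.7, 29.7 and 32.1 CPM in GMP, a change of 2.66 ± 0.21 (adjusted p = 2.97e-09). The Fc receptor genes whose proteins mark GMP went the other way. Fcgr3 had 26.9, 39.2 and 101 CPM in LSK, against 487, 525 and 587 CPM in GMP (-3.21 ± 0.55, adjusted p = 0.0135), and Fcgr2b had 20.1, 33.8 and 24.2 CPM in LSK, against 190.1, 132 and 163.7 CPM in GMP (-2.70 ± 0.22, adjusted p = 3.83e-09). LSK replicate 3 had the highest Fcgr3 of the LSK libraries and also the most macrophage marker RNA, whose part in the Fcgr3 value was not tested. Without GMP replicate 3 the adjusted p of Fcgr3 was 0.0538.

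Cd34, an adhesion protein of progenitors, differed less, with 698, 936 and 939 CPM in LSK, against 646, 611 and 531 CPM in GMP (0.52 ± 0.14, adjusted p = 0.00686, and 0.0613 without GMP replicate 3). Slamf1, the CD150 gene of long-term stem cells, was at 19.4, 22.9 and 10.6 CPM in LSK, against 1.16, 0 and 1.53 CPM in GMP, a difference of 4.35 ± 0.72 (adjusted p = 7.62e-05). The 2 populations were separated by the transcripts of their own gates in every library. The cells were sorted on such antigens, so this separation is no independent result. Of the lineage antigens 3 were tested: Ptprc was higher in LSK, Nkg7 was lower and Itgam did not pass. Ptprc lost its call with DESeq2 (adjusted p = 0.0952) and with the offset by transcript length (0.595), among other settings. The list took a mean 0.0883% of the counts in LSK, against 0.197% in GMP. Among untested members, Cd3e averaged 0.227 CPM and Cd8a 2.59 CPM in LSK, and neither had a count in GMP.

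**Figure D2:**
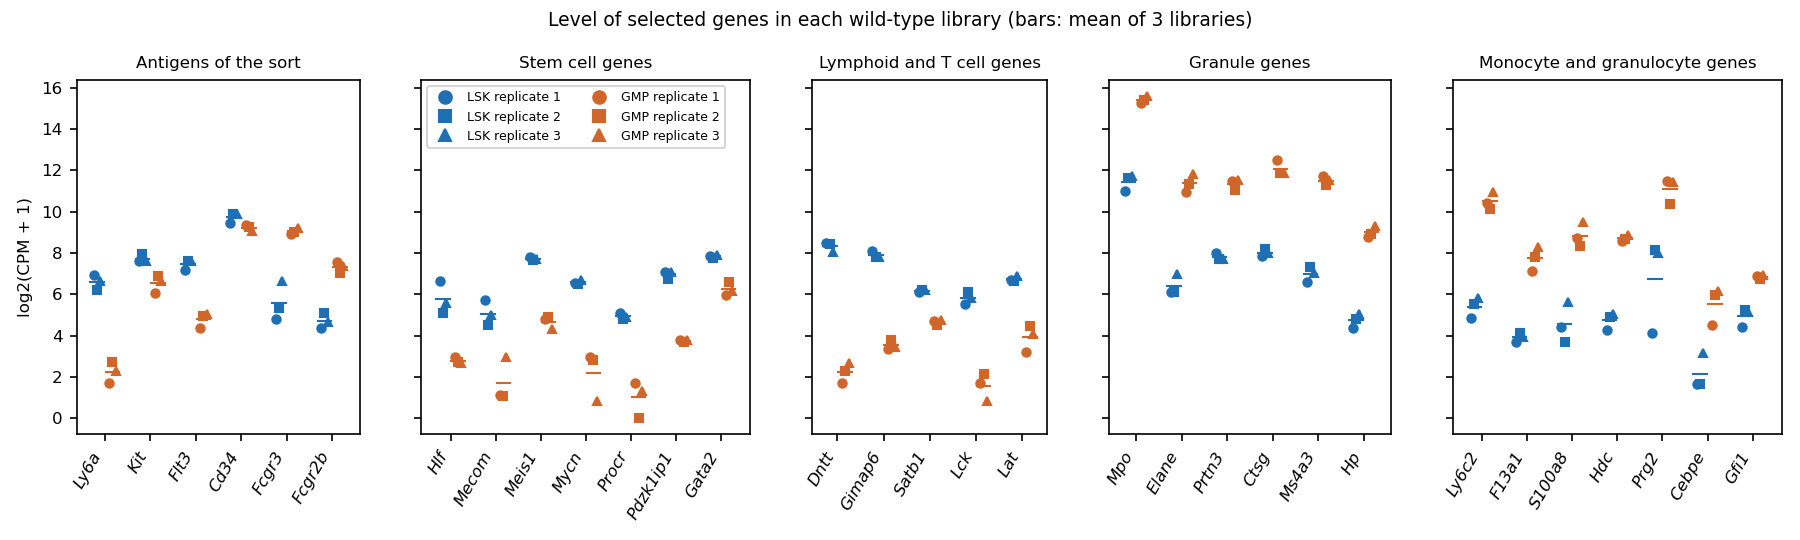
Level of selected genes as log2(CPM + 1) in each LSK library (blue, left of each pair) and each GMP library (orange, right), with the marker shape giving the replicate and the bar the mean of 3 libraries. Ly6a lies at 74.1 CPM or more in every LSK library and at 5.60 CPM or less in every GMP library, and Mpo at 3369 CPM or less in LSK and 39130 CPM or more in GMP.

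The granule protein genes were lower in LSK throughout. All 16 primary granule genes of the list were measured and all 16 were lower in LSK (background 16.4%), with a median log2 fold change of -2.47. Together they took 0.937, 1.16 and 1.21% of the counts in LSK replicates 1, 2 and 3, against 6.48, 6.72 and 7.62% in GMP (mean 1.10 ± 0.144% and 6.94 ± 0.599%, SD, n = 3 each; exact permutation p = 0.1, the smallest that 3 against 3 libraries allow). Mpo, which encodes myeloperoxidase, had 2050, 3200 and 3369 CPM in LSK, against 39130, 43780 and 49460 CPM in GMP. It was the most abundant granule transcript in both populations and -3.94 ± 0.19 on the log2 scale (adjusted p = 2.81e-11). Elane, the neutrophil elastase gene, had 69.2, 68.7 and 126 CPM in LSK, against 1992, 2578 and 3668 CPM in GMP (-4.93 ± 0.36, adjusted p = 5.95e-05). Prtn3, which encodes proteinase 3, had 256, 210.4 and 208 CPM in LSK, against 2881, 2098 and 2947 CPM in GMP (-3.55 ± 0.16, adjusted p = 8.15e-13). Ctsg, the cathepsin G gene, had 228, 296 and 255 CPM in LSK, against 5827, 3753 and 3740 CPM in GMP (-4.11 ± 0.19, adjusted p = 2.45e-11). The lowest GMP library exceeded the highest LSK library for each of these 4 genes, as it did for 22.5% of all tested genes. All 4 were detected in every LSK library.

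Ms4a3, a cell cycle regulator of granulocyte-monocyte progenitors, had 96.8, 158.1 and 132 CPM in LSK, against 3338, 2468 and 2936 CPM in GMP (-4.52 ± 0.19, adjusted p = 1.27e-12). Hp, the haptoglobin gene, differed by -4.31 ± 0.20 (adjusted p = 1.31e-11), and Plac8, an abundant myeloid gene, by -2.34 ± 0.14 (adjusted p = 2.95e-11). Plac8 ranged over 1848 to 2158 CPM in LSK, against 8760 to 11010 CPM in GMP. The list lies among the highest levels and the short transcripts, where the median of all genes is below 0. With the offset by level 15 of the 16 list members were lower and the median was -2.20. Without LSK replicate 3 the median was -2.75.

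The promoters of the 4 protease and peroxidase genes are shown because these genes differed together and the factors known to drive them are measured here. Each line gives the 250 bases before the gene start on the gene's own strand, from RefSeq on GRCm38.p6, the build family of mm10. Capitals mark the PU.1 and ETS core GAGGAA and the MYB motif, written CAACNG or TAACNG, where either strand holds them.
Mpo, chr11:87793534-87793783, plus strand: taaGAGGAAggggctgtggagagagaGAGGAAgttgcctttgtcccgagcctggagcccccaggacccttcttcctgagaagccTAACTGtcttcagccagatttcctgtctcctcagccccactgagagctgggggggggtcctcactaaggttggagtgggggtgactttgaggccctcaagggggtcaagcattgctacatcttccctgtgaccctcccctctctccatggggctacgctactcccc
Elane, chr10:79886062-79886311, plus strand: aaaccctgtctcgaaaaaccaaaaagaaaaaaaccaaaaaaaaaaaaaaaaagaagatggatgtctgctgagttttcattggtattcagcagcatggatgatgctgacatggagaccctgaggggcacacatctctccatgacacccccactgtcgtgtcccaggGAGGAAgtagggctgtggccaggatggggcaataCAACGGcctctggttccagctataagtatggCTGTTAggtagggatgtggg
Prtn3, chr10:79879417-79879666, plus strand: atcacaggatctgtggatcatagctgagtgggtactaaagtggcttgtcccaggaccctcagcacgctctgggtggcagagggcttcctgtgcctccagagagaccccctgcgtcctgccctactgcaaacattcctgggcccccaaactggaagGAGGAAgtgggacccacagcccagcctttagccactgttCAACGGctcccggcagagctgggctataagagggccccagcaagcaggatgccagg
Ctsg, chr14:56102575-56102824, minus strand: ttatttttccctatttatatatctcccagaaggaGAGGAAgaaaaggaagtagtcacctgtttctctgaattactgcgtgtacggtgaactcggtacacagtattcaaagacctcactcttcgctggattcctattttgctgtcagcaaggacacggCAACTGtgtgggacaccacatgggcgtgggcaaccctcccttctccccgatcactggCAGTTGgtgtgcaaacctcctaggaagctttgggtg

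All 4 windows held GAGGAA, which lay 247 to 242 and 224 to 219 bases before the start in Mpo, 85 to 80 in Elane, 95 to 90 in Prtn3 and 216 to 211 in Ctsg. In Elane and Prtn3 a MYB motif CAACGG followed it, 51 to 46 bases before the start in Elane and 56 to 51 in Prtn3. These matches are common: GAGGAA was found on either strand in 23.1% of 27025 promoters of this length in the RefSeq table, in 25.8% of those of genes higher in LSK and in 22.6% of those of genes lower in LSK, and in 6 of 13 granule gene promoters with an entry. A MYB motif was found in 43.0% of all promoters and in 9 of the 13. The C/EBP pattern TTGCNNAA was found in 9.55% of all promoters and in none of the 13. The RUNX pattern TGTGGT was found in 14.2% of all promoters and in 4 of the 13. Ctsg holds 1 such match, 79 to 74 bases before the start, which is not marked in its line.

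Genes of the transcription factors that drive the myeloid program were lower in LSK in part. Of 19 tested, 9 (47.4%) were lower and 6 (31.6%) higher (3 higher without GMP replicate 2), against 16.4% and 16.0% of all tested genes. Gfi1, a repressor needed for neutrophil fate, had 20.4, 37.1 and 34.0 CPM in LSK, against 116, 107 and 120.1 CPM in GMP (-1.96 ± 0.22, adjusted p = 7.78e-07). Cebpe, which drives late granule genes, had 2.19, 2.18 and 7.83 CPM in LSK, against 22.02, 61.5 and 70.4 CPM in GMP (-3.54 ± 0.51, adjusted p = 0.000117). Cebpd differed by -2.59 ± 0.24 (adjusted p = 4.47e-08) and Cebpb by -1.29 ± 0.17 (adjusted p = 1.35e-05). LSK and GMP libraries did not overlap for any of these 4 genes, where 22.5% of all tested genes were lower in every LSK library.

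Cebpa, the factor required to form GMP, had 8.15, 9.81 and 13.3 CPM in LSK, against 15.1, 34.1 and 29.1 CPM in GMP (-1.35 ± 0.37, adjusted p = 0.00812, 0.0786 without GMP replicate 2 and 0.0565 with all libraries thinned to the smallest total). Spi1, the PU.1 gene, listed in the table as Sfpi1, had 127, 128 and 202 CPM in LSK, against 255, 264 and 310.5 CPM in GMP (-0.85 ± 0.17, adjusted p = 0.000922). Irf8, the monocyte and dendritic cell factor, had 67.4, 105 and 143 CPM in LSK, against 208, 303 and 366 CPM in GMP (-1.49 ± 0.31, adjusted p = 0.00853). Transcripts of both Sfpi1 and Irf8 were detected in every library of both populations, and their populations did not overlap. Among the factor genes higher in LSK were Etv6, required for stem cell maintenance in marrow (0.80 ± 0.18, adjusted p = 0.00186, and 0.128 with the offset by transcript length), and Egr1, an early response factor (1.54 ± 0.38, adjusted p = 0.00315). Myc did not pass, with 816, 931 and 995 CPM in LSK, against 576, 884 and 751 CPM in GMP (adjusted p = 0.123, 0.0312 with the replicate block and 0.000637 with the offset by level).

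Of 18 tested genes of monocyte and macrophage differentiation 9 were lower in LSK and 2 higher, with a median of -0.97 that became -1.94 without LSK replicate 3. Ly6c2, a surface antigen of monocytes and of GMP on their way to them, showed the largest fall among called genes with a mean log2 CPM of 5 or more. It had 27.6, 45.8 and 55.8 CPM in LSK, against 1387, 1129 and 1955 CPM in GMP (-5.13 ± 0.32, adjusted p = 3.58e-06). F13a1, the coagulation factor XIII A chain made by monocytes, differed by -4.04 ± 0.28 (adjusted p = 5.48e-08), and Ccr2, the chemokine receptor of inflammatory monocytes, by -3.53 ± 0.33 (adjusted p = 4.46e-08). Csf1r, the receptor of macrophage colony-stimulating factor, had 12.5, 13.1 and 45.6 CPM in LSK, against 51.0, 68.3 and 63.5 CPM in GMP and did not pass (-1.29 ± 0.45, adjusted p = 0.0586). LSK replicate 3 stood apart for Csf1r. Without it the difference was -2.26 (adjusted p = 1.05e-05), and with the replicate block the adjusted p was 0.00218. Csf1r also passed with the offset by transcript length, at -1.59 (adjusted p = 0.0356).

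Of 10 tested genes of late neutrophil stages 6 were lower in LSK, with a median of -1.67 that was -3.15 without LSK replicate 3. Lcn2, the lipocalin of secondary granules, had 1.25, 2.18 and 1.70 CPM in LSK, against 38.2, 19.6 and 36.7 CPM in GMP (-4.23 ± 0.49, adjusted p = 9.42e-07). S100a8, a calprotectin subunit, had 20.4, 12.0 and 49.0 CPM in LSK, against 421, 319 and 723 CPM in GMP (-4.03 ± 0.62, adjusted p = 0.00994). Lyz2, the lysozyme gene, did not pass, at 560.3, 614 and 917 CPM in LSK, against 524, 527 and 667 CPM in GMP (adjusted p = 0.222), and was higher with the offset by level, at 0.83 (adjusted p = 0.00678), and by transcript length, at 0.46 (adjusted p = 0.0446). Ltf, Mmp8, Mmp9, Cxcr2, Retnlg and Cd177 had too few reads to be tested. Of these, Retnlg went the other way, with 32 counts in 2 LSK libraries and none in GMP, at least 5.99-fold higher in LSK. The NADPH oxidase and antimicrobial effector genes, of which 10 of 17 tested were lower and 0 higher, included the oxidase subunits Ncf1 (-2.07 ± 0.19, adjusted p = 3.69e-08) and Ncf4 (-1.25 ± 0.15, adjusted p = 1.22e-06), and Clec12a, an inhibitory lectin of myeloid cells (-2.91 ± 0.19, adjusted p = 3.56e-09).

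Among 12 tested genes that mark mast cells, basophils or eosinophils, 8 (66.7%) were lower in LSK and 1 (8.33%) was higher, with a median of -2.21. The shares of all tested genes were 16.4% lower and 16.0% higher. With the offset by level 8 members were lower and 0 higher. Hdc, which makes histamine, had 18.2, 29.4 and 32.0 CPM in LSK, against 384, 406 and 467 CPM in GMP (-4.01 ± 0.19, adjusted p = 2.22e-12). Cpa3, the mast cell carboxypeptidase gene, differed by -2.37 ± 0.22 (adjusted p = 1.75e-06), Mcpt8, a basophil protease gene, by -1.83 ± 0.20 (adjusted p = 9.42e-06), and Epx, the eosinophil peroxidase gene, by -3.56 ± 0.46 (adjusted p = 0.000278). Prg2, the major basic protein gene of eosinophils, had 16.6, 279 and 259 CPM in LSK, against 2828, 1327 and 2760 CPM in GMP. The populations did not overlap, but LSK replicate 1 lay far below the other LSK libraries and the gene did not pass (-3.69 ± 1.13, adjusted p = 0.0764). Without LSK replicate 1 it was at -3.10 (adjusted p = 0.00323). Prg2 also passed with DESeq2 (adjusted p = 0.00337) and in a fit of all 30 libraries of the table (0.00113). Prss34, a basophil protease gene, overlapped between the populations (adjusted p = 0.592). The list took 0.0354, 0.107 and 0.0923% of the counts in LSK, against 0.415, 0.276 and 0.386% in GMP (exact permutation p = 0.1).

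On the other side stood the genes of stem cells. Of 24 stem cell transcription factor genes tested, out of 28 in the table, 18 were higher in LSK and 0 lower (background 16.0% higher), with a median of 1.70. Meis1, a homeobox factor needed for stem cell maintenance, had 221, 199.5 and 211 CPM in LSK, against 26.7, 28.5 and 19.1 CPM in GMP (3.08 ± 0.19, adjusted p = 4.85e-11). Mycn, a MYC family member of early progenitors, had 93.4, 90.5 and 102 CPM in LSK, against 6.95, 6.16 and 0.765 CPM in GMP (4.38 ± 0.35, adjusted p = 5.37e-09). Hlf, a factor of long-term stem cells, had 101, 33.8 and 46.6 CPM in LSK, against 6.95, 5.60 and 5.35 CPM in GMP (3.41 ± 0.43, adjusted p = 1.60e-05). The GMP libraries lay close together for Hlf while LSK replicate 1 stood well above the other LSK libraries.

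Mecom, the Evi1 gene, had 51.4, 21.8 and 31.0 CPM in LSK, against 1.16, 1.12 and 6.88 CPM in GMP (3.52 ± 0.53, adjusted p = 6.40e-05). Gata2, a factor of stem and mast cells, had 230.0, 219 and 237 CPM in LSK, against 62.6, 97.4 and 71.1 CPM in GMP (1.55 ± 0.17, adjusted p = 3.21e-07). Gata3, best known from T cells and also present in stem cells, had 34.5, 28.4 and 48.7 CPM in LSK, against 3.48, 0.560 and 1.53 CPM in GMP (4.55 ± 0.50, adjusted p = 4.76e-07). Lmo2, the bridging protein of the SCL complex, was high in both, at 1315, 1395 and 1422 CPM in LSK, against 654, 637 and 665 CPM in GMP (1.08 ± 0.13, adjusted p = 9.43e-07). Runx1, Fli1 and Lyl1, which belong to the same network, did not pass, with adjusted p of 0.151, 0.0738 and 0.584. Fli1 passed with the offset by level, at 0.53 (adjusted p = 0.0235).

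Of 21 stem cell surface and secreted protein genes tested, out of 27 in the table, 19 were higher in LSK and 0 lower, with a median of 3.33. Adgrg1, listed as Gpr56, an adhesion receptor of stem cells, had 1475, 1585 and 1665 CPM in LSK, against 350.0, 448 and 379 CPM in GMP (2.00 ± 0.14, adjusted p = 3.38e-10). Pdzk1ip1, a membrane protein gene used to label stem cells, had 132, 107 and 134 CPM in LSK, against 12.8, 11.8 and 13.0 CPM in GMP (3.33 ± 0.23, adjusted p = 3.86e-10). Procr, the endothelial protein C receptor, had 33.2, 27.3 and 28.6 CPM in LSK, against 2.32, 0 and 1.53 CPM in GMP (4.77 ± 0.57, adjusted p = 1.49e-06). These 3 genes were separated in every library, where 23.6% of all tested genes were higher in every LSK library. Angpt1, the ligand of the Tek receptor, had 241, 205 and 198 CPM in LSK, against 31.3, 50.9 and 24.5 CPM in GMP (2.55 ± 0.21, adjusted p = 3.69e-08), and Esam, a junction protein of stem cells, differed by 3.602 ± 0.35 (adjusted p = 8.37e-08). Tgm2, a transglutaminase gene, had 46.4, 21.8 and 36.1 CPM in LSK, against 0, 0.560 and 0 CPM in GMP (adjusted p = 9.88e-08). The median of this list was 2.68 without LSK replicate 1 and 2.39 with all libraries thinned to the smallest total.

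Of 15 tested genes of quiescence and cell cycle inhibition, out of 18 in the table, 7 (46.7%) were higher in LSK and 0 lower. The shares of all tested genes were 16.0% higher and 16.4% lower. Txnip, an inhibitor of thioredoxin and glucose uptake, had 351, 256 and 354 CPM in LSK, against 81.1, 56.0 and 56.6 CPM in GMP (2.35 ± 0.18, adjusted p = 2.04e-09). Cdkn1c, the p57 inhibitor of cyclin-dependent kinases, had 22.9, 10.9 and 19.8 CPM in LSK, against 0, 0 and 2.29 CPM in GMP (4.49 ± 0.73, adjusted p = 6.45e-05). Foxo1 differed by 2.78 ± 0.55 (adjusted p = 0.000508).

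Of the Hox genes and their cofactors 9 were tested of 28 in the table. Among them 5 (55.6%) were higher in LSK, against 16.0% of all tested genes, and 0 were lower. The neighbouring Hoxa genes differed unequally. Hoxa10 had 46.7, 31.6 and 36.4 CPM in LSK, against 18.6, 11.2 and 6.88 CPM in GMP (1.73 ± 0.35, adjusted p = 0.000553), and Hoxa9 had 83.0, 75.2 and 108 CPM in LSK, against 63.8, 39.2 and 26.0 CPM in GMP (1.10 ± 0.26, adjusted p = 0.00313). Hoxa7 overlapped, at 54.8, 55.6 and 66.0 CPM in LSK, against 61.4, 63.2 and 43.6 CPM in GMP (adjusted p = 0.821). Mn1, a leukemia-associated cofactor gene, had 179 counts over the LSK libraries and none in GMP, which makes it at least 33.5-fold higher in LSK against a floor of 3 counts over the GMP group.

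A lymphoid gene was among the largest rises. Dntt, terminal deoxynucleotidyl transferase of early lymphoid cells, had 358, 341 and 268 CPM in LSK, against 2.32, 3.92 and 5.35 CPM in GMP (6.29 ± 0.25, adjusted p = 7.57e-14). Of 15 tested early lymphoid genes, out of 24 in the table, 13 were higher in LSK and 0 lower, with a median of 1.46. Satb1, a chromatin organiser of lymphoid progenitors, had 67.4, 73.0 and 72.5 CPM in LSK, against 25.5, 21.8 and 26.0 CPM in GMP (1.54 ± 0.23, adjusted p = 2.15e-05), and Sox4, a factor of B and T cell development, had 148, 155 and 121 CPM in LSK, against 59.1, 57.1 and 47.4 CPM in GMP (1.37 ± 0.18, adjusted p = 5.55e-06). The genes that mark committed lymphocytes were at low levels: Rag1 averaged 1.18 CPM, Ebf1 0.436 CPM and Il7r 7.50 CPM in LSK, and none of the 3 had a count in GMP.

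All 6 tested members of the Gimap family, GTPases of lymphocytes encoded side by side on chromosome 6, were higher in LSK. Their median was 4.49, and 4.31 with Gimap7, which had no GMP counts, set at its lower bound of 18.3-fold. Gimap6 had 273, 220.3 and 222 CPM in LSK, against 9.27, 12.9 and 9.94 CPM in GMP (4.43 ± 0.21, adjusted p = 8.37e-13). Gimap1 had 103, 84.0 and 83.8 CPM in LSK, against 10.4, 3.92 and 3.06 CPM in GMP (4.12 ± 0.33, adjusted p = 3.75e-09). Gimap9 differed least, at 1.37 ± 0.24 (adjusted p = 0.000153). Gm5111, a predicted gene on the same stretch of chromosome 6, differed by 6.34 ± 0.49 (adjusted p = 2.09e-09).

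Of 17 T cell and NK cell markers listed, 4 had enough reads, and all 4 were higher in LSK. Lck, a T cell kinase gene, had 45.8, 68.7 and 55.5 CPM in LSK, against 2.32, 3.36 and 0.765 CPM in GMP (4.59 ± 0.42, adjusted p = 2.58e-08), and Lat, its signalling partner, had 102, 98.1 and 117 CPM in LSK, against 8.11, 21.3 and 16.1 CPM in GMP (2.72 ± 0.26, adjusted p = 4.59e-08). The defining T cell receptor genes Cd3e, Cd3g and Cd3d averaged under 1 CPM in both populations, while the whole list summed to 202.7, 266.1 and 273.4 CPM in LSK, against 26.7, 33.6 and 27.5 CPM in GMP. A pair of immunoglobulin transcripts was also higher in LSK. Igkc had 368, 1097 and 491 CPM in LSK, against 6.95, 15.1 and 38.2 CPM in GMP (4.94 ± 0.79, adjusted p = 0.0118, and 0.0540 without GMP replicate 2), and Jchain, listed as Igj, had 118, 248.6 and 187 CPM in LSK, against 10.4, 10.1 and 7.65 CPM in GMP (4.27 ± 0.30, adjusted p = 1.17e-08). Ighm did not pass, at 283, 905 and 1132 CPM in LSK, against 122, 182 and 229 CPM in GMP (adjusted p = 0.0748, 1.26e-05 with the replicate block and 1.30e-07 without LSK replicate 1). The B and plasma cell list of 15 markers summed to 648.0, 1426 and 1709 CPM in LSK, against 622.4, 687.2 and 794.0 CPM in GMP. Only 4 of these markers were tested: Igj was higher in LSK, Xbp1 was lower, and Ighm and Cd79b did not pass. Cd79a had no count in any of the 6 libraries. The part of plasma cell RNA in these values was not tested.

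Erythroid and megakaryocyte genes were higher in LSK as well. Of 15 erythroid genes tested 12 were higher and 0 lower (median 1.91), and of 17 megakaryocyte and platelet genes 14 were higher and 0 lower (median 1.63). Car2, carbonic anhydrase 2, had 871, 1003 and 964 CPM in LSK, against 110.1, 117 and 89.5 CPM in GMP (3.16 ± 0.15, adjusted p = 8.37e-13). Epor, the erythropoietin receptor gene, differed by 3.39 ± 0.64 (adjusted p = 0.00032). Gata1, the erythroid and megakaryocyte factor, had 76.1, 64.3 and 62.6 CPM in LSK, against 38.2, 34.7 and 29.1 CPM in GMP (1.01 ± 0.22, adjusted p = 0.00141). Klf1, which drives globin genes, overlapped (adjusted p = 0.0879, 0.0213 with the replicate block and 0.00285 without GMP replicate 3), and Tfrc, the transferrin receptor, did not pass (adjusted p = 0.824).

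Itga2b, the CD41 gene, had 125, 165 and 113 CPM in LSK, against 49.8, 62.1 and 31.4 CPM in GMP (1.46 ± 0.23, adjusted p = 5.98e-05). Pf4, platelet factor 4, was abundant in both, at 549, 662 and 419.8 CPM in LSK, against 407, 365 and 298 CPM in GMP (0.60 ± 0.16, adjusted p = 0.00794). Its adjusted p was 0.0584 without GMP replicate 3, 0.0645 without LSK replicate 2 and 0.247 in a fit of all 30 libraries of the table.

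**Figure D3:**
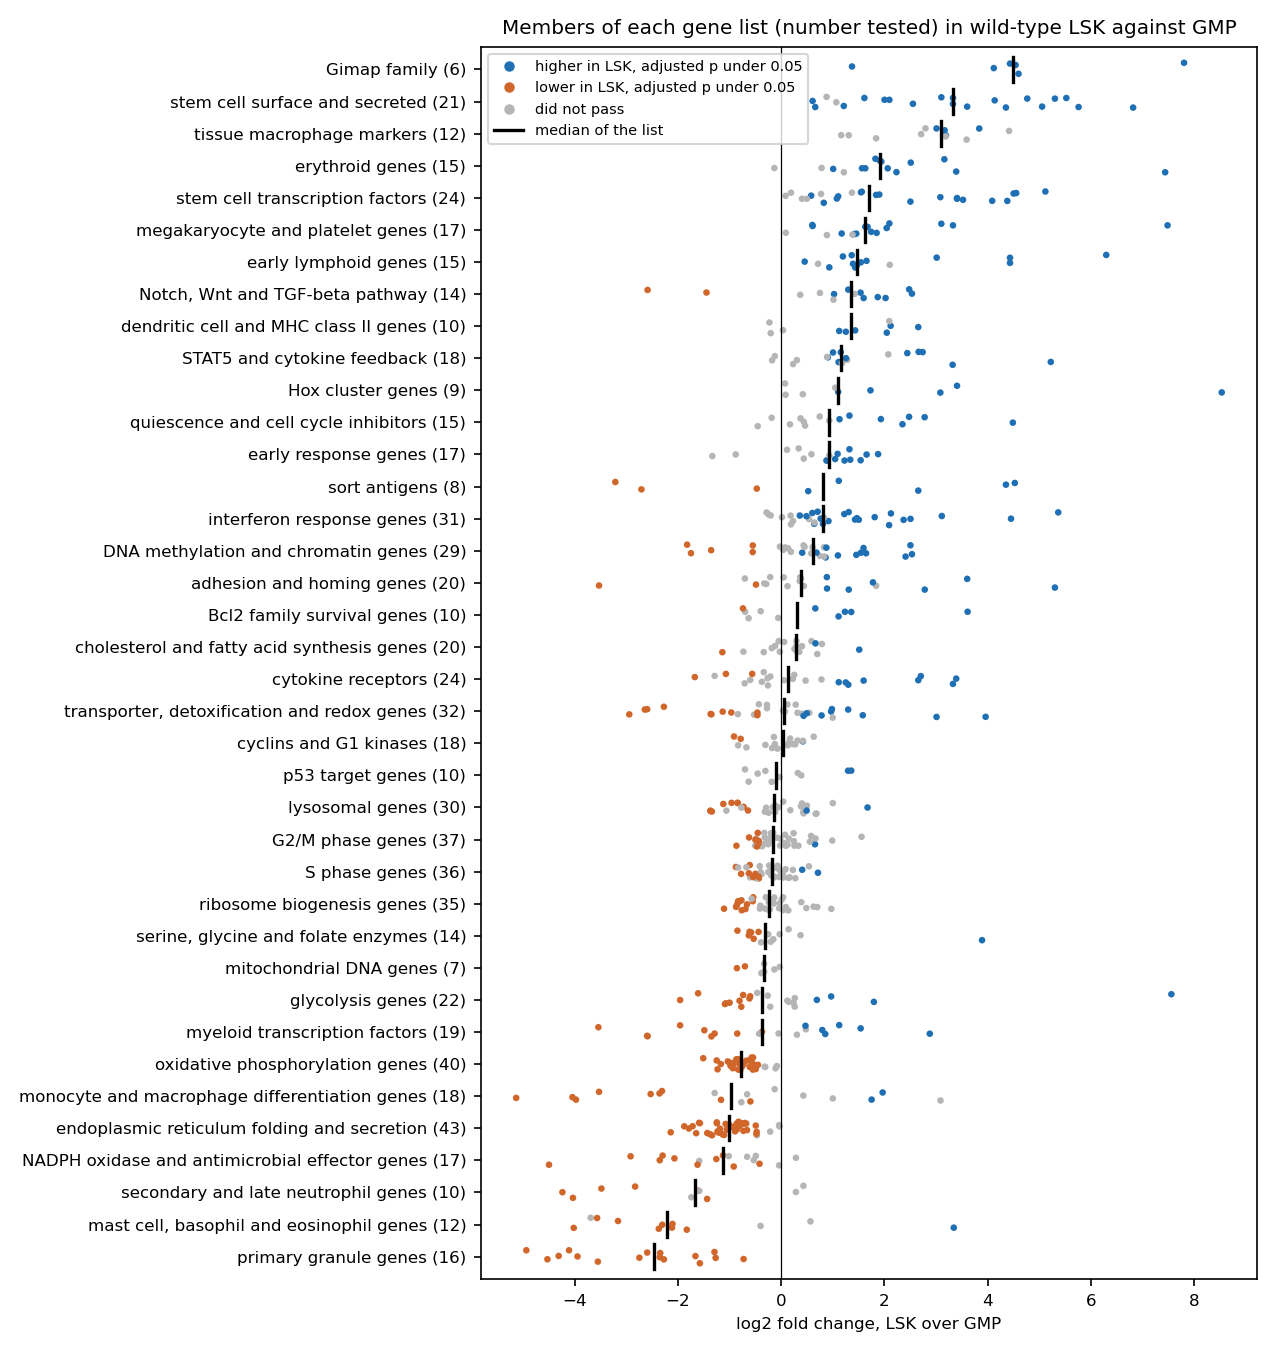
Log2 fold change of LSK over GMP for every tested member of each gene list with 5 or more tested genes, 1 row per list in order of its median (black bar), with blue and orange points for members higher and lower in LSK and grey ones for those that did not pass. Members with no counts in GMP stand at their fitted value, which is no bound. All 6 Gimap genes lie right of 0 with a median of 4.49, and all 16 primary granule genes left of it with a median of -2.47.

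Of 24 tested cytokine receptor genes, out of 32 in the table, 8 (33.3%) were higher in LSK and 3 (12.5%) lower. The shares of all tested genes were 16.0% higher and 16.4% lower. Under the offset by transcript length 6 were higher and 7 lower, where 11.2% and 18.8% of all tested genes were. The median of 0.14 changed sign, to -0.05, without GMP replicate 1, to -0.09 with the offset by level and to -0.31 with the offset by transcript length, and was 0.01 without LSK replicate 2. Beside Flt3 and Kit, Il2rg, the common gamma chain of interleukin receptors, was higher by 1.25 ± 0.15 (adjusted p = 9.72e-07), and Il1r1, the interleukin-1 receptor, by 2.70 ± 0.43 (adjusted p = 4.89e-05). Ifngr1, the interferon gamma receptor chain, was lower, with 163, 241 and 256 CPM in LSK, against 575, 664 and 848 CPM in GMP (-1.67 ± 0.18, adjusted p = 1.95e-06). Csf3r, the receptor for granulocyte colony-stimulating factor, overlapped, at 73.6, 75.2 and 95.7 CPM in LSK, against 85.8, 106 and 117 CPM in GMP (adjusted p = 0.172, and 0.0337 with the offset by transcript length).

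Feedback genes of STAT5 and of the MAP kinase pathway, which cytokine receptors switch on, were higher in LSK for 10 of 18 tested. That is 55.6%, against 16.0% of all tested genes, and 0 were lower. Socs2, a suppressor of cytokine signalling, had 70.2, 50.2 and 29.96 CPM in LSK, against 2.32, 0.560 and 1.53 CPM in GMP (5.22 ± 0.52, adjusted p = 1.43e-07). Pim2, a survival kinase gene, had 58.6, 77.4 and 61.3 CPM in LSK, against 11.6, 14.6 and 3.82 CPM in GMP (2.66 ± 0.33, adjusted p = 3.01e-06). Dusp6, an ERK phosphatase gene, differed by 1.16 ± 0.23 (adjusted p = 0.00059), and the factor genes Stat5a and Stat5b by 0.91 ± 0.22 (adjusted p = 0.00261) and 1.00 ± 0.22 (adjusted p = 0.00119). Ccnd2, the cyclin D2 gene downstream of STAT5, did not pass, at 424 ± 127 CPM in LSK and 363 ± 59.4 CPM in GMP (SD, n = 3 each; adjusted p = 0.383). It passed with the offset by level, at 0.68 (adjusted p = 0.00915).

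Early response genes, which are switched on within minutes of stimulation or of tissue handling, were higher in LSK for 10 of 17 tested. That is 58.8%, against 16.0% of all tested genes, and 0 were lower. Dusp1 had 78.7, 106 and 109 CPM in LSK, against 24.3, 30.2 and 23.7 CPM in GMP (1.88 ± 0.23, adjusted p = 1.42e-06), Zfp36 differed by 1.66 ± 0.26 (adjusted p = 0.000104) and Jun by 1.23 ± 0.18 (adjusted p = 2.52e-05). Fos had 77.1, 94.9 and 122 CPM in LSK, against 38.2, 48.1 and 54.3 CPM in GMP (1.05 ± 0.22, adjusted p = 0.000744). The labels give no time from dissection to lysis for either population.

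Interferon response genes were higher in LSK for 21 of 31 tested, and 0 were lower, with a median of 0.81. The list took 1.76, 1.71 and 1.84% of the counts in LSK, against 1.13, 1.07 and 1.08% in GMP (exact permutation p = 0.1). Iigp1, an interferon-inducible GTPase gene, had 23.2, 22.9 and 25.9 CPM in LSK, against 2.32, 0 and 0 CPM in GMP (5.37 ± 0.70, adjusted p = 4.42e-06). Irf7 had 60.2, 25.1 and 70.1 CPM in LSK, against 23.2, 6.71 and 10.7 CPM in GMP (2.13 ± 0.44, adjusted p = 0.00209). Ifi44 had 146 counts in LSK and none in GMP, at least 27.3-fold higher. Of the genes that did not pass, B2m, the light chain of MHC class I, had 5792, 5824 and 6689 CPM in LSK, against 5851, 4988 and 5287 CPM in GMP (adjusted p = 0.302, and 1.81e-06 with the offset by level). B2m was also higher with the offset by transcript length, at 0.53 (adjusted p = 0.00129).

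MHC class II genes were higher in LSK in part. H2-Ab1 had 162, 227 and 251 CPM in LSK, against 109, 77.8 and 84.1 CPM in GMP (1.25 ± 0.18, adjusted p = 2.26e-05, and 0.107 in the fit of 30 libraries). H2-Aa differed by 2.05 ± 0.36 (adjusted p = 0.000856). Cd74, the invariant chain gene, had 14.4, 21.8 and 78.7 CPM in LSK, against 6.95, 10.1 and 9.94 CPM in GMP and did not pass (2.09 ± 0.71, adjusted p = 0.0608, 0.000982 with the replicate block, 0.000376 without LSK replicate 1 and 0.0488 without LSK replicate 2). LSK replicate 3 was highest for Cd74, as it was for macrophage markers.

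Macrophage markers, which are not genes of either gate, were higher in LSK for 4 of 12 tested (33.3%, against 16.0% of all tested genes) and lower for 0. The members higher numbered 1 with the offset by level. The median was 3.09, and 1.70 without LSK replicate 3. The complement gene C1qc and the ficolin gene Fcna did not pass, and passed with the replicate block, with adjusted p of 0.00507 and 6.07e-05. They also passed without LSK replicate 3, at 1.97 (adjusted p = 0.000164) and 2.31 (adjusted p = 9.76e-05). The called members C1qa and Hmox1 lost their calls without that library, with adjusted p of 0.0510 and 0.185. Mrc1 was also called, and its call changed in none of the settings in which it was tested. C1qb, a complement subunit of tissue macrophages, had 80.2, 149 and 378 CPM in LSK, against 15.1, 20.1 and 30.6 CPM in GMP (3.19 ± 0.82, adjusted p = 0.0479), and its adjusted p was 0.126 to 0.149 without any 1 GMP library, 0.0855 without LSK replicate 2 and 0.0573 with the offset by level. Axl, a receptor for dying cells, had 37.3, 77.4 and 257 CPM in LSK, against 3.48, 2.80 and 11.5 CPM in GMP and did not pass (4.41 ± 1.23, adjusted p = 0.0602, 4.42e-11 with the replicate block, 0.0150 without LSK replicate 1 and 3.79e-05 without LSK replicate 3). Fcgrt, the neonatal Fc receptor gene, which is among the 15 largest rises, was also highest in LSK replicate 3, with 42.3, 48.0 and 150.1 CPM in LSK, against 9.27, 3.92 and 10.7 CPM in GMP (3.44 ± 0.77, adjusted p = 0.0193, and 0.105, 0.0650 and 0.0825 without GMP replicates 1, 2 and 3).

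**Figure D4:**
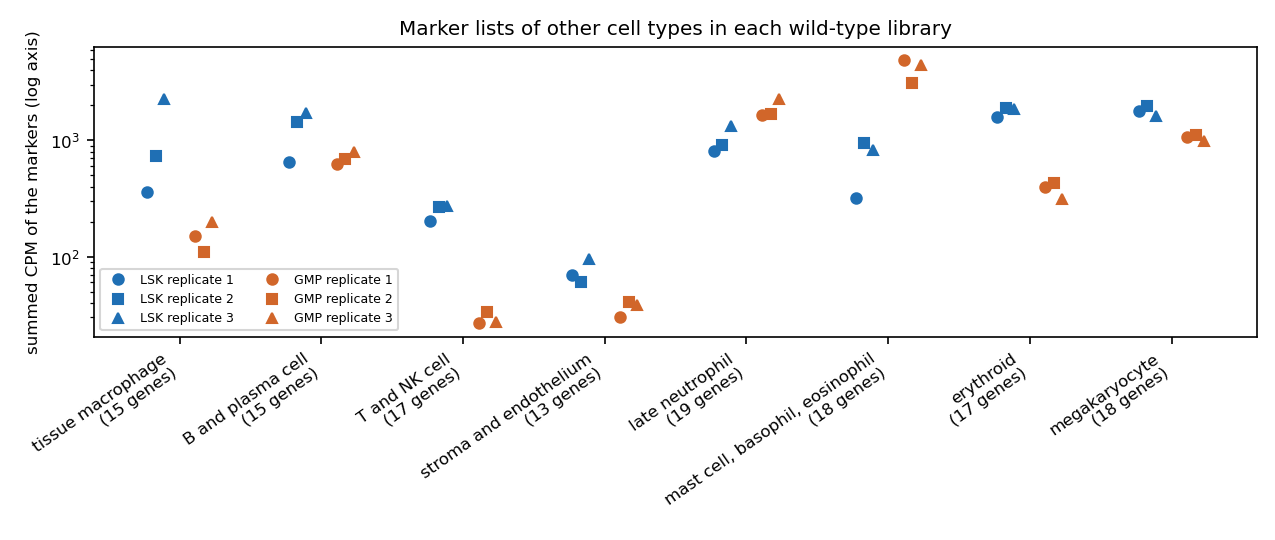
Summed CPM (log axis) of marker lists of other cell types in each LSK library (blue) and GMP library (orange), with the marker shape giving the replicate. The macrophage markers reach 2254 CPM in LSK replicate 3 and lie between 109.7 and 197.3 CPM in GMP, and the mast cell, basophil and eosinophil markers lie between 316.2 and 945.4 CPM in LSK and between 3107 and 4879 CPM in GMP.

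Genes of the secretory machinery were mostly lower in LSK. Of 43 tested genes of folding, translocation and export in the endoplasmic reticulum, 39 were lower in LSK and 0 higher, with a median of -1.01. They took 1.30, 1.49 and 1.40% of the counts in LSK, against 2.35, 2.46 and 2.47% in GMP (exact permutation p = 0.1). Sdf2l1, a chaperone partner, had 157, 197 and 184 CPM in LSK, against 748, 773 and 831 CPM in GMP (-2.14 ± 0.14, adjusted p = 1.09e-10). Manf, an ER stress protein gene, had 228, 185 and 246 CPM in LSK, against 971, 740.3 and 730.5 CPM in GMP (-1.87 ± 0.15, adjusted p = 3.90e-09). P4hb, a protein disulfide isomerase, differed by -1.71 ± 0.14 (adjusted p = 6.96e-09), Hspa5, the BiP chaperone, by -1.38 ± 0.15 (adjusted p = 3.21e-07), and Sec61b, of the translocation channel, by -1.64 ± 0.14 (adjusted p = 1.35e-08). Herpud1, an ER-associated degradation gene, did not pass (adjusted p = 0.907). With the offset by level 29 members were lower and the median was -0.66, and with the offset by transcript length 39 were lower.

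Nuclear genes of oxidative phosphorylation were lower in LSK for 36 of 40 tested, and 0 were higher, with a median of -0.78. Their share of the counts was 2.47, 2.45 and 2.35% in LSK, against 3.46, 3.09 and 3.01% in GMP (exact permutation p = 0.1). Cycs, the cytochrome c gene, had 103, 94.9 and 113 CPM in LSK, against 328, 293 and 271 CPM in GMP (-1.51 ± 0.14, adjusted p = 4.95e-08). Uqcrq, of complex III, differed by -1.25 ± 0.14 (adjusted p = 5.31e-07) and Cox4i1, of complex IV, by -1.03 ± 0.14 (adjusted p = 7.83e-06). The list has a median mean log2 CPM of 9.25 and a median transcript length of 1298 bases, against 5.27 and 3189 bases for all tested genes. With the offset by level 10 members were lower and 2 higher, with a median of -0.23, and with the offset by transcript length 31 were lower, with a median of -0.46. Of the genes of mitochondrial DNA 2 of 7 tested were lower, mt-Nd1 (-0.86 ± 0.15, adjusted p = 0.000204) and mt-Cytb (-0.70 ± 0.17, adjusted p = 0.0034), and neither passed with the offset by level, with adjusted p of 0.190 and 0.892.

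Of 22 tested glycolysis genes 10 (45.5%) were lower in LSK, with 5 lower under the offset by level, and 4 (18.2%) were higher, near the 16.0% of all tested genes. Hk3, the hexokinase of myeloid cells, had 65.8, 75.2 and 81.7 CPM in LSK, against 254, 243 and 365 CPM in GMP (-1.96 ± 0.17, adjusted p = 1.86e-08), while Hk1 was higher by 0.69 ± 0.17 (adjusted p = 0.0035) and Hk2 did not pass (adjusted p = 0.516, and 0.0352 with the offset by transcript length, which put it at -0.61). Aldoa differed by -1.09 ± 0.15 (adjusted p = 7.81e-06), while Aldoc, an aldolase isoform, had 91 counts in LSK and none in GMP, at least 17-fold higher. Slc2a3, the GLUT3 glucose transporter, was higher by 1.80 ± 0.27 (adjusted p = 2.99e-05).

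Of 32 tested redox and detoxification genes 9 (28.1%) were higher in LSK and 10 (31.2%) lower, against 16.0% and 16.4% of all tested genes. The members higher numbered 5 without GMP replicate 2, GMP replicate 3 or LSK replicate 3. They also numbered 5 under the offset by transcript length, where 11.2% of all tested genes were higher. Gsr, glutathione reductase, averaged 168 ± 29.01 CPM in LSK and 1049 ± 195 CPM in GMP (SD, n = 3 each; -2.64 ± 0.16, adjusted p = 1.56e-10), and Gstm1, a glutathione transferase, differed by -2.59 ± 0.19 (adjusted p = 1.03e-07). Aldh1a1, the aldehyde dehydrogenase of stem cells, had 50.8, 30.5 and 25.2 CPM in LSK, against 2.32, 3.36 and 0.765 CPM in GMP (3.96 ± 0.49, adjusted p = 1.95e-06). Abcg2, the dye efflux pump of the side population, had 86.8, 56.7 and 68.4 CPM in LSK, against 27.8, 56.0 and 37.5 CPM in GMP (0.78 ± 0.25, adjusted p = 0.0181). Its adjusted p was 0.0710 without GMP replicate 1, 0.0746 without GMP replicate 3, 0.101 without LSK replicate 1 and 0.254 with the offset by transcript length.

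Of 36 S phase genes tested 8 (22.2%) were lower in LSK and 2 (5.56%) higher, with a median of -0.19. Of 37 G2/M genes 8 (21.6%) were lower and 1 (2.70%) higher, with a median of -0.15. The shares lower lie near the 16.4% of all tested genes. The summed share of the raw counts, taken without TMM factors, was higher in LSK in both lists. TMM factors were 1.1338 to 1.1452 in LSK and 0.8548 to 0.8949 in GMP. Dividing by these factors lowers LSK levels against GMP levels. Shares and fold changes are therefore on different scales, and their opposite signs are no conflict. S phase genes took 0.733, 0.823 and 0.739% of the counts in LSK, against 0.695, 0.692 and 0.644% in GMP, and G2/M genes took 0.507, 0.552 and 0.501% in LSK, against 0.464, 0.490 and 0.489% in GMP (exact permutation p = 0.1 for each). Rrm2, the ribonucleotide reductase subunit, had 297, 329 and 313 CPM in LSK, against 486, 604 and 509 CPM in GMP (-0.77 ± 0.13, adjusted p = 0.000112), and Cdk1, the mitotic kinase gene, had 170.5, 198 and 151 CPM in LSK, against 259.6, 271 and 261 CPM in GMP (-0.62 ± 0.14, adjusted p = 0.00166). Neither passed under the offset by level, with adjusted p of 0.0851 and 0.0997. With that offset 3 S phase genes were lower and 8 higher, with a median of 0.02, and 1 G2/M gene was lower, with a median of -0.03. The median of the G2/M genes was -0.03 without LSK replicate 1 as well. The offset by transcript length went the other way. Under it 11 S phase genes were lower and 0 higher, with a median of -0.32. Of the G2/M genes 9 were then lower and 0 higher, with a median of -0.23. Of all tested genes 18.8% were lower under that offset. Without GMP replicate 1, GMP replicate 2 or LSK replicate 3 the S phase genes lower numbered 5, and without GMP replicate 2 the G2/M genes lower numbered 5. Mki67, the Ki-67 antigen gene, varied among LSK libraries, at 131, 50.2 and 28.9 CPM in LSK, against 27.8, 24.6 and 21.4 CPM in GMP (1.56 ± 0.64, adjusted p = 0.126). Mki67 passed with the replicate block (adjusted p = 0.00248) and without LSK replicate 3 (0.000117). It also passed with DESeq2 (0.00370), without the filter on low counts (0.00347) and in the fit of all 30 libraries (0.0247). With all libraries thinned to the smallest total its adjusted p was 0.0245. It did not pass with either offset.

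Ribosome biogenesis genes were lower in LSK for 11 of 35 tested (31.4%, against 16.4% of all tested genes) and higher for 0, with a median of -0.24. Nop10, of the H/ACA ribonucleoprotein, had 785, 764 and 730.3 CPM in LSK, against 1872, 1491 and 1544 CPM in GMP (-1.11 ± 0.13, adjusted p = 1.35e-06), and Nhp2, of the same particle, differed by -0.87 ± 0.13 (adjusted p = 3.25e-05, and 0.0858 with the offset by level). Ncl, the nucleolin gene, did not pass (adjusted p = 0.467), and was 0.42 with the offset by level and -0.71 with the offset by transcript length. The members lower numbered 7 with the offset by level and 18 with the offset by transcript length, and 2 were higher with the offset by level. The median was -0.01 with the offset by level, and -0.38 with the offset by transcript length or without LSK replicate 1.

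Of 29 tested genes of DNA methylation and chromatin 12 (41.4%) were higher in LSK and 5 (17.2%) lower, against 16.0% and 16.4% of all tested genes. The higher members numbered 7 without LSK replicate 1, and the lower ones 3 with the offset by level. The median was 0.61, and 0.36 without LSK replicate 1 and 0.11 with the offset by transcript length. Smarca2, a SWI/SNF ATPase, had 68.0, 56.7 and 53.1 CPM in LSK, against 6.95, 12.9 and 12.2 CPM in GMP (2.41 ± 0.29, adjusted p = 1.49e-06). Dnmt3b, a de novo methyltransferase, had 75.8, 70.9 and 65.0 CPM in LSK, against 20.9, 30.8 and 23.7 CPM in GMP (1.46 ± 0.23, adjusted p = 5.41e-05). Idh1, isocitrate dehydrogenase 1, was lower, with 46.4, 73.0 and 62.3 CPM in LSK, against 219, 184 and 225 CPM in GMP (-1.82 ± 0.18, adjusted p = 7.65e-08). Hmga2 and Hmga1, related architectural proteins, went opposite ways, at 2.50 ± 0.53 (adjusted p = 0.000897) and -1.35 ± 0.30 (adjusted p = 0.00143).

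Of 14 tested Notch, Wnt and TGF-beta pathway genes 8 (57.1%) were higher in LSK and 2 (14.3%) lower, the latter near the 16.4% of all tested genes. The higher members numbered 5 without LSK replicate 3 or with the offset by transcript length, and 4 with the offset by level. Tcf7l2, a Wnt pathway factor, had 38.5, 54.5 and 63.3 CPM in LSK, against 3.48, 14.6 and 6.12 CPM in GMP (2.53 ± 0.37, adjusted p = 3.05e-05). Of 20 adhesion and homing genes 7 were higher and 2 lower, with 4 lower under the offset by transcript length. P2ry14, a nucleotide sugar receptor of progenitors, differed by 1.78 ± 0.27 (adjusted p = 2.48e-05), and S1pr1, the receptor for the egress signal sphingosine 1-phosphate, by 2.78 ± 0.60 (adjusted p = 0.00107). Of 10 Bcl2 family genes 5 were higher and 1 lower, and Bcl2 itself had 62.0, 42.5 and 44.3 CPM in LSK, against 22.02, 24.1 and 17.6 CPM in GMP (1.24 ± 0.27, adjusted p = 0.00125).

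Outside the lists, the 15 largest falls included genes of epithelial or unassigned roles. Cldn15, a claudin of tight junctions, had 2.51, 3.27 and 4.43 CPM in LSK, against 126, 101 and 135 CPM in GMP (-5.11 ± 0.29, adjusted p = 1.31e-11), and Dmkn, dermokine of the skin, had 5.33, 3.27 and 8.85 CPM in LSK, against 212, 179.6 and 222 CPM in GMP (-4.97 ± 0.24, adjusted p = 1.22e-12). Chst13, a chondroitin sulfotransferase gene, differed by -4.41 ± 0.32 (adjusted p = 7.95e-10) and Hsd11b1, which regenerates active glucocorticoid, by -4.47 ± 0.46 (adjusted p = 1.24e-06). These 4 genes were at 8.85 CPM or less in every LSK library and at 47.0 CPM or more in every GMP library. The 15 largest falls were taken among genes without overlap, so a separation was set by the choice. Alas1, the first enzyme of haem synthesis outside red cells, had 63.0, 106 and 84.8 CPM in LSK, against 744, 748 and 902 CPM in GMP (-3.28 ± 0.17, adjusted p = 1.31e-11). Among the largest rises outside the lists, Myl10, a myosin light chain gene, had 118, 74.1 and 107 CPM in LSK, against 13.9, 5.60 and 2.29 CPM in GMP (3.95 ± 0.37, adjusted p = 3.53e-07), and Trim47 had 54.5, 59.97 and 56.9 CPM in LSK, against 3.48, 7.27 and 3.82 CPM in GMP (3.43 ± 0.34, adjusted p = 8.04e-08).

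Detection was unequal. In all, 291 genes had 10 or more counts over the LSK libraries and none in GMP, and 9 had 10 or more counts in GMP and none in LSK. After thinning to the smallest library these numbers were 127 and 12. Beside Mn1 and Ifi44 the first kind included Fhl1, a LIM protein gene (at least 16.8-fold higher), Tox, a factor of lymphoid development (at least 15.4-fold), and Ermap, an erythroid membrane protein gene (at least 13.9-fold). The second kind included Ear6, an eosinophil-associated ribonuclease gene with 63 counts in GMP (at least 37.4-fold lower in LSK), and Rnase10 with 17 counts (at least 10.1-fold lower).

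Several clusters of related genes were looked at along the chromosome, and were chosen after their values were seen (coordinates on GRCm38.p6). In the Ly6 cluster on chromosome 15, Ly6a (74994877 to 74998031) rose by 4.52 and Ly6c2 (75108161 to 75112066) fell by 5.13 on the log2 scale. Ly6d was higher by 4.05 ± 0.70 (adjusted p = 0.00013), while Ly6e differed by -0.60 ± 0.13 (adjusted p = 0.00153) and reversed to 0.12 with the offset by level. In the S100a cluster on chromosome 3, S100a6 had 196, 139.6 and 189 CPM in LSK, against 30.1, 24.1 and 15.3 CPM in GMP (2.96 ± 0.22, adjusted p = 2.04e-09), and S100a4 differed by 1.97 ± 0.41 (adjusted p = 0.000858). Their neighbours S100a8 and S100a9 were lower, S100a9 at -1.61 ± 0.41 (adjusted p = 0.00538). Of 7 tested Ms4a genes on chromosome 19, 5 were lower in LSK, among them Ms4a6c of monocytes (-2.31 ± 0.17, adjusted p = 9.90e-10) and Ms4a2, the beta chain of the IgE receptor (-3.16 ± 0.39, adjusted p = 2.11e-06). Ms4a7 was higher, with 6.58, 10.9 and 48.0 CPM in LSK, against 3.48, 3.92 and 2.29 CPM in GMP (adjusted p = 0.0307, 0.179 without LSK replicate 3, 0.114 to 0.180 without any 1 GMP library and 0.111 with the offset by level). Its highest library was again LSK replicate 3. Prtn3 (79879667 to 79883174) and Elane (79886312 to 79888216) lie next to each other on chromosome 10.

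**Figure D5:**
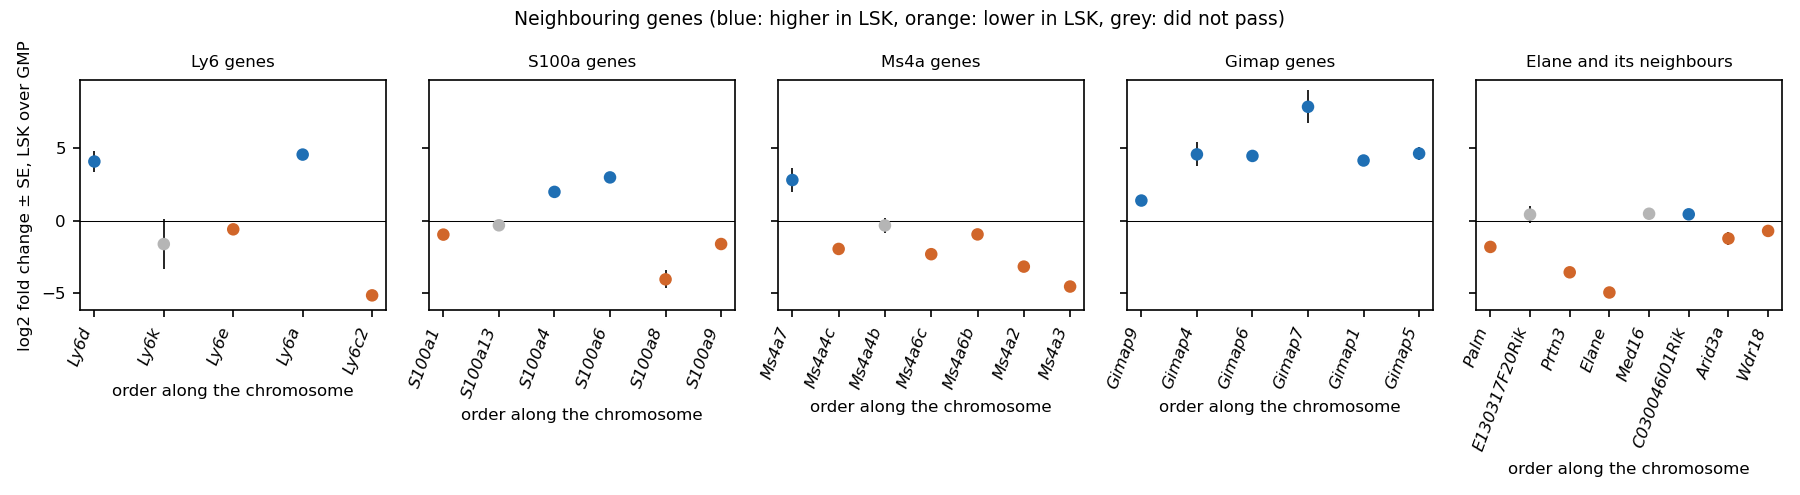
Log2 fold change of LSK over GMP ± SE for neighbouring genes of 5 loci in their order along the chromosome, with blue for higher and orange for lower in LSK and grey for genes that did not pass. Gimap7, with no counts in GMP, stands at its fitted value, which is no bound. Ly6a lies at 4.52 next to Ly6c2 at -5.13, S100a6 at 2.96 next to S100a8 at -4.03, and all 6 Gimap genes lie above 0.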

How the data were processed

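RNA was sequenced from sorted WT LSK and GMP cells, 3 libraries each. The deposited values are raw read counts per gene; the authors aligned with STAR to mm10 and counted with featureCounts, per the submitters' processing notes, and versions, annotation and strand setting are not given in the sources used here. The table holds 33924 genes in 30 libraries, of which the 6 WT ones entered the fit. Counts were filtered with filterByExpr, scaled by TMM and tested with edgeR 4.0.16 in R 4.3.3 (robust quasi-likelihood F test, no block, Benjamini-Hochberg adjusted p under 0.05). The SE is the log2 fold change divided by the square root of F. Nothing in the labels says more of how replicates were made than the animal number.

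Same-numbered LSK and GMP libraries come from 1 animal per the column names; their residuals correlated at 0.113, 0.0105 and 0.151 over 5074 genes, and other pairs at -0.163 to 0.0666. On simulated data the test recovered 57% of 93 genes changed 2-fold and 97.1% of 104 changed 4-fold, with 9 false calls among 9182 genes. The simulated data held no trend with level or transcript length, and far fewer changed genes than the 3051 called here. These rates therefore do not carry over to the calls reported. Alternatives were DESeq2 1.42.0, median-ratio size factors, other filters, the replicate block, all 30 libraries or 29, thinning to 808900 counts, and leaving out each library. Offsets fitted to level (lowess span 0.3) and transcript length (natural spline, 5 df) were chosen after seeing the data.

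Gene lists and comparisons were chosen with earlier results of these data known. Named genes are the 15 largest changes in each direction with a mean log2 CPM of 5 or more and no overlap, up to 4 members called in each direction and 3 not called in each list, and the gate antigens; Mpo, Plac8, Procr, Mecom, Tgm2, Lmo2, Irf8, Cebpa, Sfpi1, Sox4, Gata1, Pf4, Epx, Cd74, Abcg2, Fos, Irf7, Stat5a, Stat5b, Hspa5, Sec61b, Cox4i1, Mki67, Alas1, Axl, Gm5111, Gimap9, S100a6, S100a9, Ly6d, Ly6e, Ms4a7, the genes at or near 0 and the loci were chosen after their values were seen. Fold bounds use a floor of 3 counts over a group. These bounds cover counting error only, while SEs and SDs include the spread between libraries. Promoters are from the RefSeq table of GRCm38.p6, and transcript lengths from GENCODE.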

Additional observations from a re-analysis of the deposited data

How the results depend on the processing

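The number of genes called, 3051 in the fit reported, was 2702 with DESeq2 (2505 of them shared), 3062 with median-ratio size factors, 3435 with no filter, 3064 with the 5 CPM filter, 3041 with 30 libraries and 3081 with 29. It was 2408 with thinned counts, 2441 to 2758 without any 1 library, 2380 with the offset by level (1227 higher, 1153 lower) and 2797 with the offset by transcript length (1044 higher, 1753 lower). With the replicate block 3174 genes were called, 2920 of them shared; of 360 named genes 28 gained and 1 lost a call, and the block changed no call printed in the report other than those given there. Genes with no counts in GMP numbered 127 after thinning.

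Counts of list members moved as follows, and the cause was not tested. With the offset by level, members higher in LSK were 4 for Notch, Wnt and TGF-beta and 1 for tissue macrophage markers, and members lower in LSK were 3 for S phase, 1 for G2/M, 7 for ribosome biogenesis, 10 for oxidative phosphorylation, 5 for glycolysis, 1 for serine, glycine and folate enzymes and 3 for chromatin genes. With the offset by transcript length, members higher were 5 for Notch, Wnt and TGF-beta and 5 for redox genes, and 18 ribosome biogenesis genes and 7 cytokine receptor genes were lower. Thinning left 5 S phase and 5 G2/M genes lower, and the fits of 30 and 29 libraries left 3 dendritic cell and MHC class II genes higher. Without any 1 library, members higher ranged over 3 to 6 for myeloid transcription factors, 5 to 8 for Notch, Wnt and TGF-beta, 7 to 12 for chromatin and 5 to 9 for redox genes, and members lower over 5 to 9 for S phase and 5 to 8 for G2/M genes.

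Among named genes 11 reversed with the offset by level: Atp5a1 at 0.38, Cd48 at 0.00715, Mcm7 at 0.34, Ncl at 0.42, Prdx1 at 0.43, Prdx6 at 0.33, Psmb8 at 0.38, Rfc2 at 0.34, Sdha at 0.38, Ly6e at 0.12 and Myb at 0.010. With the offset by transcript length 1 reversed, Dnmt1 at -0.033. Depth limits the genes lowest in level: at 808900 counts in the smallest library, 1 count is worth about 1 CPM.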
